A study of Mus musculus with 42 samples.

Results

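Macrophages of aged mice taken at zeitgeber time 12 (ZT12) were compared with macrophages of aged mice taken at ZT0 and ZT24. Zeitgeber time counts hours from lights on, so ZT12 stands at the opposite phase of the day from ZT0 and ZT24, which are the same clock phase of successive cycles. The libraries were chosen by their labels alone, 3 at ZT12 against 6 at ZT0 and ZT24 with 3 at each time, and make up 9 of the 42 libraries of the study. All were from C57BL/6 mice labelled 18 to 20 months old, and no treatment or genetic change is given. The other 33 libraries were 12 from aged mice at ZT4, ZT8, ZT16 and ZT20 and 21 from mice of 2 to 3 months at the same 7 times. The labels call the cells macrophages and do not name the organ or the sort, or say whether a library came from 1 mouse or from several, so that p-values measure the spread between libraries only. RNA was read by 3' end sequencing, in which each transcript is counted near its end, and values are reads normalized to the library, called normalized reads here.

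The ZT12 libraries held 7289013 to 9650704 reads in genes and the ZT0 and ZT24 libraries 4864402 to 11898433. Transcripts of the mitochondrial genome took 1.48% to 2.07% of the reads at ZT12 and 1.46% to 2.04% at ZT0 and ZT24. The 12 macrophage lineage genes summed to between 189775 and 234508 normalized reads at ZT12 and between 194400 and 295128 at ZT0 and ZT24, above the sums of the other cell types that follow. The harvest also held transcripts of other cells. B cell markers summed to 16515 to 23990 at ZT12 and 11912 to 26838 at ZT0 and ZT24, T and NK cell markers to 273 to 1347 at ZT12 and 123 to 510 at ZT0 and ZT24, and mast cell markers to 2835 to 2977 at ZT12 and 2129 to 3470 at ZT0 and ZT24. Neutrophil markers summed to 301 to 388 at ZT12 and 303 to 423 at ZT0 and ZT24, eosinophil markers to 180 to 287 at ZT12 and 120 to 264 at ZT0 and ZT24, dendritic cell markers to 255 to 526.3 at ZT12 and 186 to 712 at ZT0 and ZT24, and red cell markers to 2.58 to 12.5 at ZT12 and 2.08 to 172 at ZT0 and ZT24. Among these markers Mpo, Epx, Prg2, Siglech and Slc4a1 were listed at 0 in all 9 libraries. So were 5 of the 13 protein-coding mitochondrial genes, among them mt-Co2, mt-Co3 and mt-Atp6, which every cell uses, so that a listed 0 does not show that a cell type was absent.

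The mammalian clock is a loop of transcription factors. BMAL1, encoded by Arntl, pairs with CLOCK and binds E-box elements in the genes of its own repressors, the period and cryptochrome proteins. The same pair drives the nuclear receptors REV-ERB alpha and beta (Nr1d1 and Nr1d2), which repress Arntl through ROR elements, and the factors DBP and TEF, which act on D-box elements. Macrophages run this clock themselves and also receive the daily wave of adrenal glucocorticoid, which rises toward the active phase in mice.

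Among 12016 genes tested with limma, 25 were called at an adjusted p under 0.05, which is 0.208% of the genes. An unadjusted p under 0.05 was found for 821 genes, where 601 would be counted by chance. At ZT12, 14 genes rose (0.117%) and 11 fell (0.0915%). Rises were between 1.81-fold and 17.3-fold and falls between 1.62-fold and 4.13-fold, and 18 of the 25 changed at least 2-fold. Most of the widest differences were those of clock genes: 9 of the 25 belong to the clock lists, of which 3 period genes, Cry2, both REV-ERB genes, Dbp and Tef rose and Arntl fell. The glucocorticoid-induced genes Fkbp5, Klf9 and Tsc22d3 rose as well, and Nlrp3, Hspa1b, Bcl2a1b and Mlxipl were among those that fell. In every called gene the 3 ZT12 libraries lay wholly above or wholly below the 6 others, as they did in 463 of all genes tested (3.85%). DESeq2 on the recovered reads called 53 genes, 28 up and 25 down, and these held all 25.

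**Figure D1:**
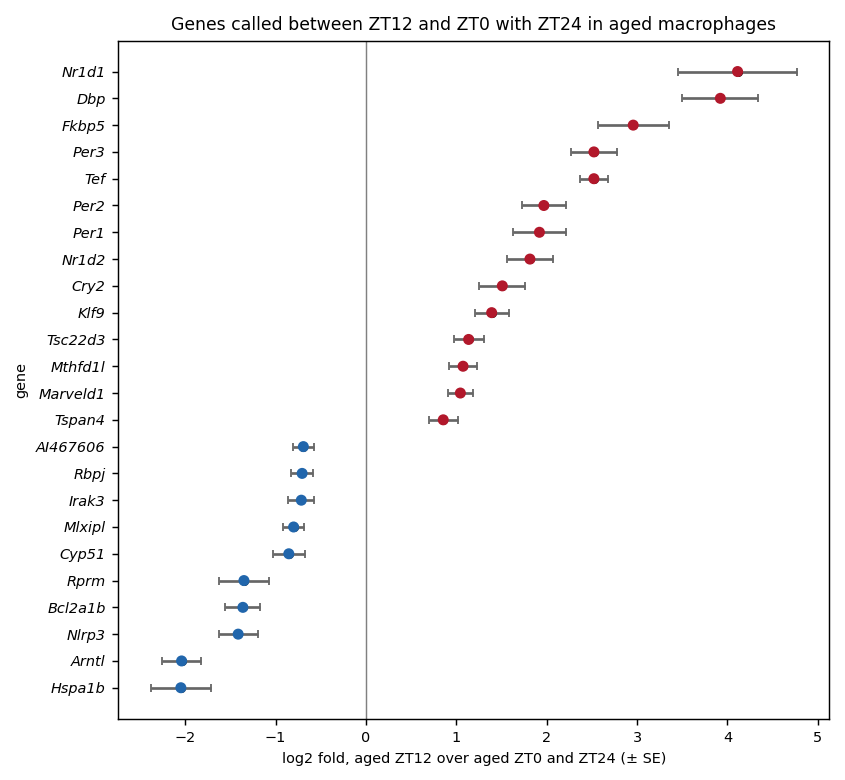
Log2 fold of aged ZT12 over aged ZT0 and ZT24 (x axis, with 1 SE from limma) for 24 of the 25 called genes, leaving out a Rik gene model (y axis). Points right of 0 are the 14 rises, led by Nr1d1 at 4.11 and Dbp at 3.92, and points left of 0 are falls, led by Hspa1b at -2.05 and Arntl at -2.04.

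The promoters shown here are windows of 7 of the called genes that hold a clock element, from 250 bases before to 50 bases after a RefSeq transcription start on GRCm38.p6, with the start at base 251 of each window. Tspan4 and Irak3 also held such an element and are not printed, and the windows of Dbp, Nr1d1 and Cry2 held none. Per2 was matched to no window and was not searched. Capitals mark the elements, which are the D-box TTATGTAA in Per3, the E-box CACGTG in Per1, Tef, Fkbp5 and Mlxipl, and the ROR half-site AGGTCA, read on either strand, in Per1, Arntl and Nr1d2.
Per3, chr4:151044616-151044915, minus strand: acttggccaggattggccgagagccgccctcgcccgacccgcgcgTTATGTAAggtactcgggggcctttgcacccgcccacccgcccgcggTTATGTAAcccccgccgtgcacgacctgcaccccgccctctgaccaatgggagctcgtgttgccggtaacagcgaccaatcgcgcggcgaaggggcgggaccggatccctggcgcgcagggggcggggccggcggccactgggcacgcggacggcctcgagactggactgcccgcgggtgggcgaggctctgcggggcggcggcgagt
Per1, chr11:69098699-69098998, plus strand: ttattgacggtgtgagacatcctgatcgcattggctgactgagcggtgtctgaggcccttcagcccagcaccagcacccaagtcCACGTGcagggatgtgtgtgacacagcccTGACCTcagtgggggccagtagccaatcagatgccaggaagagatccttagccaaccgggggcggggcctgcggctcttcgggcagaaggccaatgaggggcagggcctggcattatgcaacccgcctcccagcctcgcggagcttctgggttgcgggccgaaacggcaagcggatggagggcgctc
Tef, chr15:81811164-81811463, plus strand: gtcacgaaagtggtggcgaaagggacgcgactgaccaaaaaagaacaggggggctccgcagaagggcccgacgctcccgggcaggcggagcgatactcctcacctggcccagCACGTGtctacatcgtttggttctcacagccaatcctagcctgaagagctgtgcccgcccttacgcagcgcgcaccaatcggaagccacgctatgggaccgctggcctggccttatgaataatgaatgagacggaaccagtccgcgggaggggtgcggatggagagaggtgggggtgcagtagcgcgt
Fkbp5, chr17:28486100-28486399, minus strand: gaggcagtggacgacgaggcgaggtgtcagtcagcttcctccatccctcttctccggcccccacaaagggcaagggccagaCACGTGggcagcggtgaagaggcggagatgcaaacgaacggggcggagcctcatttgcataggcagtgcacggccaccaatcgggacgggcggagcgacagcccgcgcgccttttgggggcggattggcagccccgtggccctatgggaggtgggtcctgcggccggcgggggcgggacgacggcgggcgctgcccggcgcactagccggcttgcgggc
Nr1d2, chr14:18239057-18239356, minus strand: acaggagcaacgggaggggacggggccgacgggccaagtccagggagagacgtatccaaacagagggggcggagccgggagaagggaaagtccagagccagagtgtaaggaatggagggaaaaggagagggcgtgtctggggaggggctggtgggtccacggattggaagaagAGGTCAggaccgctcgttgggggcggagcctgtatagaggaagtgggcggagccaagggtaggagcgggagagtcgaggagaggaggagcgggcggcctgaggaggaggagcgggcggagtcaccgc
Arntl, chr7:113207261-113207560, plus strand: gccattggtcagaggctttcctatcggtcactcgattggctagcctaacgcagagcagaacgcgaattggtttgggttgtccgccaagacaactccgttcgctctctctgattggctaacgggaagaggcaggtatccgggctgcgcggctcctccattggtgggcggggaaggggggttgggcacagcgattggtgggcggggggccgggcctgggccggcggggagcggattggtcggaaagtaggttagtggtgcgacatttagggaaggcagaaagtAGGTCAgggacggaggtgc
Mlxipl, chr5:135089640-135089939, plus strand: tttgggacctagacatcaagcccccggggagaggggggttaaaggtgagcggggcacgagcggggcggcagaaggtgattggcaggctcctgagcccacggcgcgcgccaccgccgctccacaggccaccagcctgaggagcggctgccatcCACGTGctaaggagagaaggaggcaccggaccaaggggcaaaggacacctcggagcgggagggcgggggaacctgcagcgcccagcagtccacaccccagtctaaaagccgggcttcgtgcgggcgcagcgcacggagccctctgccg

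Of the rises, 13 of 14 were matched to a promoter, all but Per2, and of the falls all 11. The E-box was found in 4 of the 13 (Fkbp5, Per1, Tef and Tspan4) and in 2 of the 11 (Irak3 and Mlxipl), against 7.15% of 32851 promoter windows. Tef held an E-box in both of its annotated windows. The D-box was found in Per3 alone among the called genes, with 2 copies, against 0.938% of all windows. The ROR half-site stood in Nr1d2 and Per1 among the rises and in Arntl and Irak3 among the falls, against 16.3% of windows. The cAMP element TGACGTCA was in none of the called genes and in 1.79% of windows, and its half-site TGACG, which is part of it, was in 5 rises and 4 falls against 20.8% of windows. The glucocorticoid response element was in no window of the called genes and in 0.475% of all windows, and the heat shock element was in none and in 0.603%. Several genes have more than 1 window, so shares of genes and shares of windows are not on the same base, and a match is a run of letters only.

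Arntl, which encodes the activator BMAL1 (chromosome 7, 113207465 to 113314126), was the only member of the clock lists called lower. It had 62.0, 64.9 and 45.9 normalized reads in the ZT12 libraries, against a lowest of 192, a median of 218 and a highest of 312 at ZT0 and ZT24. Every ZT12 library was below every other, and the log2 fold was -2.04 ± 0.21 (SE, limma, adjusted p = 8.31e-06). Its partner Clock had a log2 fold of -0.42 ± 0.13 and was not called (limma, adjusted p = 0.349), although its 387 to 481 normalized reads at ZT12 also lay below the 499 to 647 at ZT0 and ZT24. Npas2, the other partner of BMAL1, did not pass the filter and reached at most 0.898 normalized reads.

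Among the repressors, Per1, Per2, Per3 and Cry2 rose, 4 of the 6 listed members. Per3 had 383, 468 and 445 normalized reads at ZT12, against a lowest of 46.3, a median of 68.8 and a highest of 138 at ZT0 and ZT24, a log2 fold of 2.52 ± 0.25 (limma, adjusted p = 5.04e-06). Its 3' end lies within Camta1 on the same strand, which averaged 119 at ZT12 and 106 at ZT0 and ZT24. Per2 had 331, 394 and 394 at ZT12, against 44.9, 108 and 118 as the lowest, median and highest at ZT0 and ZT24, a log2 fold of 1.97 ± 0.25 (limma, adjusted p = 0.000108). Per1, which also responds directly to glucocorticoid, had 613, 419 and 463 at ZT12. At ZT0 and ZT24 Per1 had a lowest of 84.0, a median of 109 and a highest of 355, the last in 1 ZT24 library, and the log2 fold was 1.92 ± 0.29 (limma, adjusted p = 0.00096). Cry2 had 183, 254 and 208 at ZT12, against 55.0, 74.5 and 105 as the lowest, median and highest at ZT0 and ZT24, a log2 fold of 1.51 ± 0.25 (limma, adjusted p = 0.00316). Without the second ZT12 library the adjusted p of Cry2 was 0.0664 with a log2 fold of 1.38.

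The remaining repressors did not pass the test. Cry1, the cryptochrome whose transcript peaks later than the period genes in most mouse tissues, had 122, 147 and 162 normalized reads at ZT12 against 74.7 to 132 at ZT0 and ZT24, which overlap, and its log2 fold was 0.54 ± 0.24 (limma, adjusted p = 0.658). Ciart, a small repressor also called CHRONO, had 34.5, 36.4 and 31.0 at ZT12 against 0 to 13.5 at ZT0 and ZT24, which do not overlap, and its log2 fold was 2.79 ± 0.83 (limma, adjusted p = 0.305). DESeq2 gave Ciart an adjusted p of 0.0334.

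**Figure D2:**
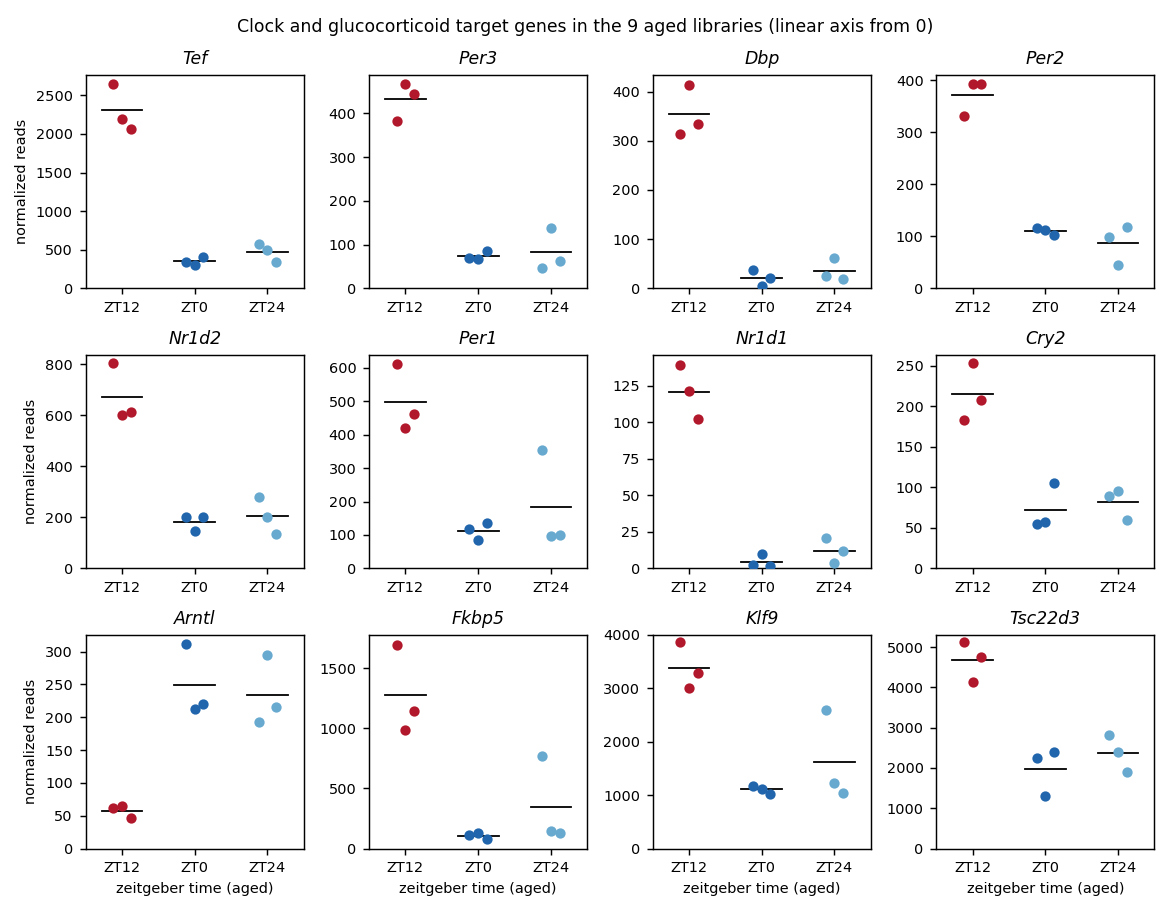
Normalized reads (y axis, from 0) in each aged library at ZT12, ZT0 and ZT24 (x axis) for 12 called genes; points are libraries and lines are means of 3. The ZT12 points stand above all others in 11 panels and below them in Arntl, and 1 ZT24 library is high in Per1, Fkbp5 and Klf9.

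Both REV-ERB genes rose. Nr1d1 (chromosome 11, 98767932 to 98775333) had 139.5, 122 and 102 normalized reads at ZT12, against a lowest of 1.69, a median of 6.80 and a highest of 21.03 at ZT0 and ZT24. These rest on 162, 107 and 89 reads at ZT12 and on 1 to 30 reads at ZT0 and ZT24. The log2 fold was 4.11 ± 0.66 (limma, adjusted p = 0.0018), the widest of the comparison, and on the log2(value + 1) scale it understates the change of a gene this low. The 3' end of Nr1d1 overlaps Thra on the other strand, which averaged 286 at ZT12 and 292 at ZT0 and ZT24, and the sources used here do not say whether reads were counted by strand. Nr1d2 had 804, 603 and 612 at ZT12, against 135, 201 and 280 as the lowest, median and highest at ZT0 and ZT24, a log2 fold of 1.81 ± 0.25 (limma, adjusted p = 0.000357). Rora, which activates through the element that the REV-ERB proteins occupy, had overlapping groups and a log2 fold of 0.45 ± 0.21 (limma, adjusted p = 0.71).

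The output factors Tef and Dbp rose. Tef (chromosome 15, 81802421 to 81826863) had 2652, 2198 and 2060 normalized reads at ZT12, against a lowest of 306, a median of 370 and a highest of 577 at ZT0 and ZT24. Its log2 fold of 2.52 ± 0.16 had the lowest p of the comparison (limma, adjusted p = 1.10e-09). Dbp (chromosome 7, 45705088 to 45710203) had 314, 414 and 334 at ZT12, against 5.002, 22.4 and 61.9 as the lowest, median and highest at ZT0 and ZT24, a log2 fold of 3.92 ± 0.42 (limma, adjusted p = 9.77e-06). The 3' end of Dbp lies within Sphk2 on the other strand, which averaged 898 at ZT12 and 767 at ZT0 and ZT24. Nfil3, which represses through the D-box that DBP and TEF activate, had 106, 156 and 142 at ZT12, all below the 178 to 425 at ZT0 and ZT24. Nfil3 was not called with limma (log2 fold -1.01 ± 0.26, adjusted p = 0.184) and was called with DESeq2 (adjusted p = 0.0387). Hlf, of the same family as DBP and TEF, stayed under the filter at no more than 4.15.

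Taking the 5 clock lists as a whole, 25 genes were listed, 21 passed the filter, 8 rose, 1 fell and 12 did not pass the test. The kinases and ubiquitin ligases that set the stability of the clock proteins had 5 members that passed, of which 0 were called by limma, edgeR or DESeq2 and 0 had an unadjusted p under 0.05. Their median log2 fold was -0.04, against 0.00 for all genes tested.

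Among the 18 glucocorticoid response genes that passed, Fkbp5, Klf9, Tsc22d3 and Per1 rose and none fell, 16 had a log2 fold above 0, and the median was 0.45, against 0.00 over all genes. Fkbp5, a co-chaperone that restrains the glucocorticoid receptor (chromosome 17, 28399094 to 28517527), had 1699, 989 and 1147 normalized reads at ZT12. In the 6 ZT0 and ZT24 libraries its lowest was 76.1, its median 128 and its highest 774, and the log2 fold was 2.96 ± 0.39 (limma, adjusted p = 0.000224). Klf9, a Krüppel-like factor induced by the receptor, had 3861, 3011 and 3291 at ZT12, against 1021, 1149 and 2598 as the lowest, median and highest at ZT0 and ZT24, a log2 fold of 1.39 ± 0.19 (limma, adjusted p = 0.000259). Tsc22d3, which encodes the glucocorticoid-induced leucine zipper, had 5117, 4145 and 4765 at ZT12, against 1306, 2321 and 2824 as the lowest, median and highest at ZT0 and ZT24, a log2 fold of 1.14 ± 0.16 (limma, adjusted p = 0.000545).

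The highest ZT0 or ZT24 value of Fkbp5, Klf9, Per1 and Tsc22d3 was in each case that of the first ZT24 library, which was the highest of the 6 in 10 of the 18 glucocorticoid response genes. How often the first ZT24 library was the highest over all genes was not counted. Without that library the log2 folds were 3.37 for Fkbp5, 1.59 for Klf9, 2.23 for Per1 and 1.20 for Tsc22d3, and all 4 were called. Leaving out the highest of the 6 widens the fold of a rise by itself, so these calls add no support. Dusp1, a phosphatase gene that the receptor induces in macrophages, had 1940, 2121 and 2049 at ZT12 against 1034 to 1916 at ZT0 and ZT24, and was not called (limma, log2 fold 0.66 ± 0.22, adjusted p = 0.385).

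The other 3 called rises belong to no clock or glucocorticoid list. Mthfd1l, a mitochondrial enzyme of folate metabolism, had 537.5, 881 and 652 normalized reads at ZT12, against 264, 317 and 424 as the lowest, median and highest at ZT0 and ZT24, a log2 fold of 1.07 ± 0.16 (limma, adjusted p = 0.000732). Marveld1, a protein with a MARVEL domain, had 3264, 2220 and 2188 at ZT12 against 943, 1256 and 1487 at ZT0 and ZT24, a log2 fold of 1.05 ± 0.14 (limma, adjusted p = 0.000219). Tspan4, a membrane tetraspanin, had 1326, 1342 and 1336 at ZT12 against 624, 724 and 859 at ZT0 and ZT24, a log2 fold of 0.86 ± 0.16 (limma, adjusted p = 0.0116). Tspan4 lost its call without any 1 of the 3 ZT12 libraries, with limma adjusted p = 0.0529, 0.0953 and 0.0837 and a log2 fold of 0.85 or 0.86, and its 3' end overlaps Chid1 on the other strand.

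Nlrp3 and Irak3, of innate immune signalling, fell at ZT12. Nlrp3, the sensor of the inflammasome that matures interleukin 1 beta (chromosome 11, 59541568 to 59566956), had 113, 173 and 80.3 normalized reads at ZT12, against a lowest of 252, a median of 314 and a highest of 381.5 at ZT0 and ZT24. Its log2 fold was -1.41 ± 0.21 (limma, adjusted p = 0.000903), and it was the 1 of 11 inflammasome genes that passed the test. Irak3, a kinase-like protein that restrains Toll-like receptor signalling, had 299.7, 264 and 343 at ZT12 against 429, 497 and 573 as the lowest, median and highest at ZT0 and ZT24, a log2 fold of -0.71 ± 0.15 (limma, adjusted p = 0.0309). It was the 1 of 24 Toll-like receptor and NF-kB genes called, and its call was lost without any 1 of 6 libraries. The adjusted p of Irak3 was then 0.0907 and 0.317 without the first and second ZT12 library, 0.0915 without the first ZT0 library, 0.072 without the third, and 0.063 and 0.08 without the first and second ZT24 library.

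Bcl2a1b, an anti-apoptotic member of the BCL2 family that NF-kB induces, had 117, 161 and 132 normalized reads at ZT12, against 236, 363 and 432 as the lowest, median and highest at ZT0 and ZT24. The log2 fold was -1.36 ± 0.19 (limma, adjusted p = 0.000386). Bcl2a1b has near-identical copies, so reads can be split between them, and its copy Bcl2a1a, looked up for that reason after its values were seen, had 1.15 to 18.2 at ZT12 and 11.9 to 28.01 at ZT0 and ZT24 (limma, log2 fold -1.58 ± 0.99, adjusted p = 0.813).

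The heat shock chaperone genes leaned to lower values at ZT12. Of 21 members that passed, Hspa1b fell, all 21 had a log2 fold below 0 and 9 had an unadjusted p under 0.05, with a median of -0.29. For comparison, 3.42% of all genes tested were lower at an unadjusted p under 0.05. Hspa1b, an inducible HSP70 gene (chromosome 17, 34956436 to 34959238), had 39.6, 27.3 and 47.1 normalized reads at ZT12, against a lowest of 119, a median of 147 and a highest of 226.5 at ZT0 and ZT24, a log2 fold of -2.05 ± 0.34 (limma, adjusted p = 0.00241). Without the second ZT12 library Hspa1b had an adjusted p of 0.0544 and a log2 fold of -1.83. With marker scores of B cells, T and NK cells and mast cells as covariates its log2 fold was -1.78 (limma, adjusted p = 0.0859). Hspa1a, its near-identical neighbour, which may share reads with it, had 108 to 216 at ZT12 and 163 to 365 at ZT0 and ZT24, which overlap (limma, log2 fold -0.68 ± 0.25, adjusted p = 0.514).

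Partners of HSP70 had smaller differences and were not called with limma. Hsp90aa1, the inducible cytosolic HSP90, had 332, 397 and 386 at ZT12 and 397 to 760 at ZT0 and ZT24, with a log2 fold of -0.65 ± 0.15 (limma, adjusted p = 0.1, and 0.0133 with DESeq2). Hsph1, the HSP110 exchange factor, had 281 to 359 at ZT12 and 314 to 677 at ZT0 and ZT24, with a log2 fold of -0.73 ± 0.19 (limma, adjusted p = 0.187, and 0.0445 with DESeq2). Without the second ZT24 library, which was the lowest of the 6 for both genes, Hsp90aa1 was called (limma, log2 fold -0.74, adjusted p = 0.0189). Leaving out the library nearest to ZT12 widens the fold by itself, so this call adds no support. In the folding list of the endoplasmic reticulum, 22 of 24 members had a log2 fold below 0 and 5 an unadjusted p under 0.05, the median was -0.19, and 0 were called by limma, edgeR or DESeq2. Hyou1, an HSP70 of that compartment, had 275, 298 and 287 at ZT12 against 328 to 562 at ZT0 and ZT24 (limma, log2 fold -0.45 ± 0.17, adjusted p = 0.562).

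**Figure D3:**
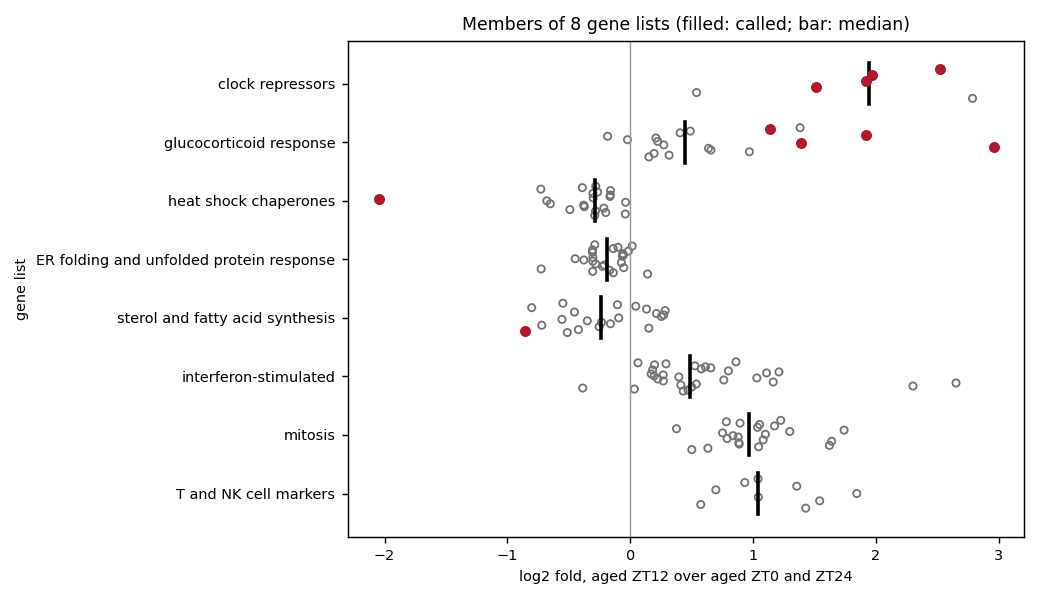
Log2 fold of aged ZT12 over aged ZT0 and ZT24 (x axis) for the members that passed the filter in 8 gene lists (y axis); each circle is a gene, filled where called, and the bar is the list's median. The clock repressors lie right of 0 with a median of 1.94, the heat shock chaperones lie left of it, and the mitosis and T and NK cell lists lie right of it with no filled circle.

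Of the genes of lipid metabolism, Mlxipl and Cyp51 fell. Mlxipl, which encodes ChREBP, the factor that turns on fat synthesis genes in response to sugar (chromosome 5, 135089890 to 135138382), had 1375, 1259 and 992 normalized reads at ZT12, against 1952, 2098 and 2243 as the lowest, median and highest at ZT0 and ZT24. The log2 fold was -0.80 ± 0.11 (limma, adjusted p = 0.000386). Cyp51, the demethylase of lanosterol in cholesterol synthesis, had 152, 183 and 190.5 at ZT12 against 241, 313 and 441 at ZT0 and ZT24, a log2 fold of -0.85 ± 0.18 (limma, adjusted p = 0.0357). Cyp51 was the only called member of 21 sterol and fatty acid genes, of which 14 were below 0 and 6 had an unadjusted p under 0.05, with a median of -0.24. Its call was lost without any 1 of the 9 libraries except the first at ZT24, with adjusted p between 0.0511 and 0.156 and a log2 fold between -0.92 and -0.75, and its 3' end overlaps Akap9 on the other strand. Lpl, the lipase that releases fatty acids from lipoproteins, had 2047, 1983 and 1012 at ZT12 against 2118 to 4526 at ZT0 and ZT24, and was not called (limma, log2 fold -1.05 ± 0.29, adjusted p = 0.24).

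Of the other falls, Rbpj, the DNA-binding factor of Notch signalling, had 995, 1019 and 949 normalized reads at ZT12 against 1207, 1674 and 1925 as the lowest, median and highest at ZT0 and ZT24, a log2 fold of -0.71 ± 0.12 (limma, adjusted p = 0.00413). Without the third ZT12 library Rbpj had an adjusted p of 0.0524 and a log2 fold of -0.68. Rprm, a p53 target that acts on the cell cycle, had 116, 97.9 and 95.3 at ZT12 against 144, 261 and 520 at ZT0 and ZT24, a log2 fold of -1.35 ± 0.27 (limma, adjusted p = 0.0309). The call of Rprm was lost without any 1 ZT12 library (limma, adjusted p = 0.0587, 0.211 and 0.205) and without the second ZT0 library (0.054) or the third (0.104). AI467606, a gene without a given role here, had 2177, 2235 and 2245 at ZT12 against 3087, 3562 and 4389 at ZT0 and ZT24, a log2 fold of -0.69 ± 0.12 (limma, adjusted p = 0.00444). The remaining called fall was a gene model with a Rik name.

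The called genes were followed over all 7 times, in 21 aged libraries. They were called for differing between ZT12 and ZT0 with ZT24. Extreme ranks at those times follow in part from that choice and are no separate support. Of the 14 rises, 12 had their highest mean at ZT12 and 2, Nr1d1 and Nr1d2, at ZT8, and 10 had their lowest mean at ZT0. Of the 11 falls, 8 had their lowest mean at ZT12 and 3, Nlrp3, Hspa1b and AI467606, at ZT8. Tef averaged 347, 605, 1761, 2303, 1208, 690 and 470 normalized reads at ZT0, ZT4, ZT8, ZT12, ZT16, ZT20 and ZT24, and its ZT12 libraries did not overlap those of ZT8. Fkbp5 averaged 106, 136, 370, 1278, 266, 267 and 350 at the same times, a narrower rise with no overlap of ZT12 and ZT8. Nr1d1 averaged 4.59, 110, 197, 121, 7.48, 4.50 and 12.2, so it was already past its highest mean at ZT12. Per2 averaged 110, 46.9, 191, 373, 325, 216 and 87.2, with its lowest mean at ZT4 and overlapping libraries at ZT12 and ZT16. Arntl averaged 248, 205, 83.1, 57.6, 105, 205 and 234. These ranks describe means of 3 libraries, and in 20 of the 25 genes the libraries of the time with the highest mean overlapped those of the next highest. For the falls this concerns their highest times, and overlap at their lowest times was not computed.

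**Figure D4:**
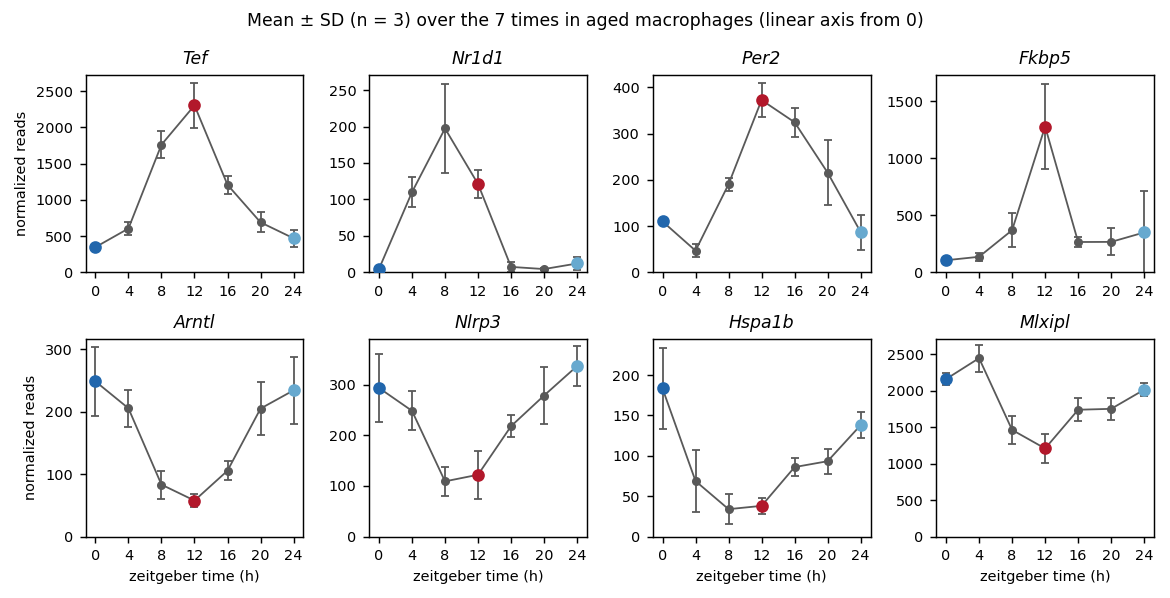
Mean ± SD (n = 3) of normalized reads (y axis, from 0) at 7 zeitgeber times (x axis) for 8 called genes in aged macrophages, with ZT12 in red and ZT0 and ZT24 in blue; the bar of Fkbp5 at ZT24 runs below 0. Tef, Per2 and Fkbp5 are highest at ZT12, Nr1d1 at ZT8, and Arntl and Mlxipl are lowest at ZT12.

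The ZT24 and ZT0 groups, taken a full cycle apart, were compared with each other because both stand against ZT12. With limma 0 of 12016 genes (0%) were called between ZT24 and ZT0, 420 had an unadjusted p under 0.05 where 601 would be counted by chance, edgeR called 0 and DESeq2 called 1. A count below chance does not show that the groups are alike. Of the 25 genes called at ZT12, 15 were higher at ZT24 than at ZT0 and 2, Fkbp5 and Tef, had an unadjusted p under 0.05. Their ZT24 over ZT0 log2 folds were between -0.44 for Per2 and 1.28 for Nr1d1, and that of Fkbp5 was 1.23 ± 0.45, with the first ZT24 library at 774 and the other 5 between 76.1 and 148. Set against ZT0 alone, ZT12 gave 22 calls (0.183%), and against ZT24 alone 17 (0.141%). Nr1d1 had a log2 fold of 4.75 over ZT0 and 3.47 over ZT24, and the second did not pass the test (limma, adjusted p = 0.0779).

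Several lists held no called gene and had most of their members on 1 side of 0. Among them were DNA replication (21 of 23 above 0), MHC class I (12 of 14 above), MHC class II (9 of 11 above) and glycolysis (12 of 15 above). The mitochondrial genome list (8 of 8 below) and B cell markers (11 of 13 below) leaned the other way. All 22 mitosis genes had a log2 fold above 0, 8 had an unadjusted p under 0.05, where 3.41% of all genes were higher at that level, the median was 0.96, and limma, edgeR and DESeq2 called 0. Ccnb1, the B-type cyclin of mitotic entry, had 84.4, 150.3 and 45.9 normalized reads at ZT12, against 6.28, 35.3 and 120 as the lowest, median and highest at ZT0 and ZT24 (limma, log2 fold 1.64 ± 0.64, adjusted p = 0.562). The mitosis genes had a mean log2 value of 6.69 to 7.54 at ZT12 and of 4.36 to 7.55 at ZT0 and ZT24, with the lowest and the highest both at ZT24. Without the third ZT24 library, which held the highest of these means, Ccnb1 was called (limma, log2 fold 2.31, adjusted p = 0.0148). Leaving out that library widens the fold by itself, so the call adds no support. All 9 T and NK cell markers that passed were above 0, 4 of them with an unadjusted p under 0.05, and limma, edgeR and DESeq2 called 0. Cd3d, a T cell receptor subunit, had 275, 42.1 and 31.0 at ZT12 and 8.00 to 61.4 at ZT0 and ZT24, so that the first ZT12 library stood apart. In bulk RNA a change in the share of such cells and a change in RNA per cell cannot be told apart. With the marker scores of B cells, T and NK cells and mast cells as covariates 22 genes were called over all genes, 19 of them among the 25. The calls lost in that fit were those of Tspan4, Hspa1b, Rprm, Cyp51, AI467606 and the Rik gene model. The log2 fold with and without the covariates was 0.83 and 0.86 for Tspan4, -1.78 and -2.05 for Hspa1b, -1.30 and -1.35 for Rprm, and -0.92 and -0.85 for Cyp51. For AI467606 it was -0.58 with and -0.69 without them, and for the Rik gene model, 2510009E07Rik, -0.61 with and -0.83 without them, so that each kept its direction.

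Interferon-stimulated genes had 29 of 30 members above 0, with a median of 0.49. An unadjusted p under 0.05 (limma) was found for 11, where 3.41% of all genes were higher at that level. The mean log2 value of the list was 7.24, 7.62 and 8.19 in the ZT12 libraries and 6.66 to 7.36 at ZT0 and ZT24. The first ZT12 library thus lay within the range of ZT0 and ZT24. With limma and edgeR 0 were called, and DESeq2 called Ifi44 and Ifit2. Ifi44 had 16.4, 55.8 and 181 normalized reads at ZT12, against 3.11, 10.9 and 25.4 as the lowest, median and highest at ZT0 and ZT24, groups that overlap (limma, log2 fold 2.30 ± 0.64, adjusted p = 0.263). Ifit2, an antiviral RNA-binding protein, had 25.8, 35.3 and 182.5 at ZT12 against 1 to 21.98 at ZT0 and ZT24, which do not overlap (limma, log2 fold 2.65 ± 0.77, adjusted p = 0.295). Both were highest in the third ZT12 library, and Ifi44 was called without the first ZT12 library, its lowest at ZT12 (limma, log2 fold 3.15, adjusted p = 0.0359). Leaving out the lowest ZT12 library widens the fold by itself, so that call adds no support. Lists for complement (8 of 15 above 0), phagocytosis receptors (14 of 25), the phagocytic cup (10 of 21), the proteasome (19 of 30), lysosomes (16 of 25) and the nuclear respiratory chain (18 of 27) had 0 genes called by limma, edgeR or DESeq2. Of their members 1 phagocytosis receptor had an unadjusted p under 0.05, Mertk, a receptor for apoptotic cells (limma, log2 fold 0.58 ± 0.19, adjusted p = 0.378).

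The same contrast was formed in young macrophages in a joint fit of all 42 libraries, to see whether the day difference differed with age. All 25 called genes had the same sign in young cells and 18 of them were called there. In the joint fit 47 genes were called in aged cells (0.388% of 12109) and 100 in young cells (0.826%), and the 30 called in both were 63.8% of the aged and 30% of the young list. For the difference between ages limma called 0 of 12109 genes (0%), 479 had an unadjusted p under 0.05 where 605 would be counted by chance, and edgeR and DESeq2 called 0. Here too a count below chance does not show that the ages are alike.

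By the naming rule, the 10 genes of lowest unadjusted p for the difference between ages were Cry1, Egln3, Nr1d2, Igf2, Hspa1a, Ube2ql1, Kpna3, D17H6S53E, Mmp9 and Abca7, of which Cry1 and Nr1d2 are clock genes. Their differences were between -1.41, for Mmp9, and 3.36, for Igf2, and none was called (limma, adjusted p = 0.999 for each). Among the 9 called clock genes the widest differences were those of Nr1d1, Per2, Nr1d2 and Cry2. Nr1d1 had a log2 fold of 4.14 ± 0.67 in aged and 6.01 ± 0.67 in young cells (difference -1.88 ± 0.94, limma adjusted p = 0.999). Nr1d2 had a log2 fold of 1.82 ± 0.23 in aged and 3.01 ± 0.23 in young cells (difference -1.19 ± 0.32, limma adjusted p = 0.999). Per2 had 1.97 ± 0.28 in aged and 0.68 ± 0.28 in young cells (difference 1.29 ± 0.40, limma adjusted p = 0.999). Cry2 had 1.51 ± 0.24 in aged and 0.58 ± 0.24 in young cells (difference 0.94 ± 0.34, limma adjusted p = 0.999). Cry1, which was called in neither, had 0.54 ± 0.22 in aged and -0.68 ± 0.22 in young cells, the lowest p of all genes for the difference (1.23 ± 0.31, limma adjusted p = 0.999). Tef, Dbp, Per1, Per3, Arntl, Fkbp5, Klf9 and Nlrp3 had differences between -0.27 and 0.24, with SEs between 0.19 and 0.56. Of the 25 genes 17 had the larger absolute log2 fold in aged cells, which carries no weight because they were chosen by that fold. An unadjusted p under 0.05 for the difference between ages (limma) was found for 6 of the 25, and for 479 of all 12109 genes. The choice by the aged fold bears on the 6 as well.

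**Figure D5:**
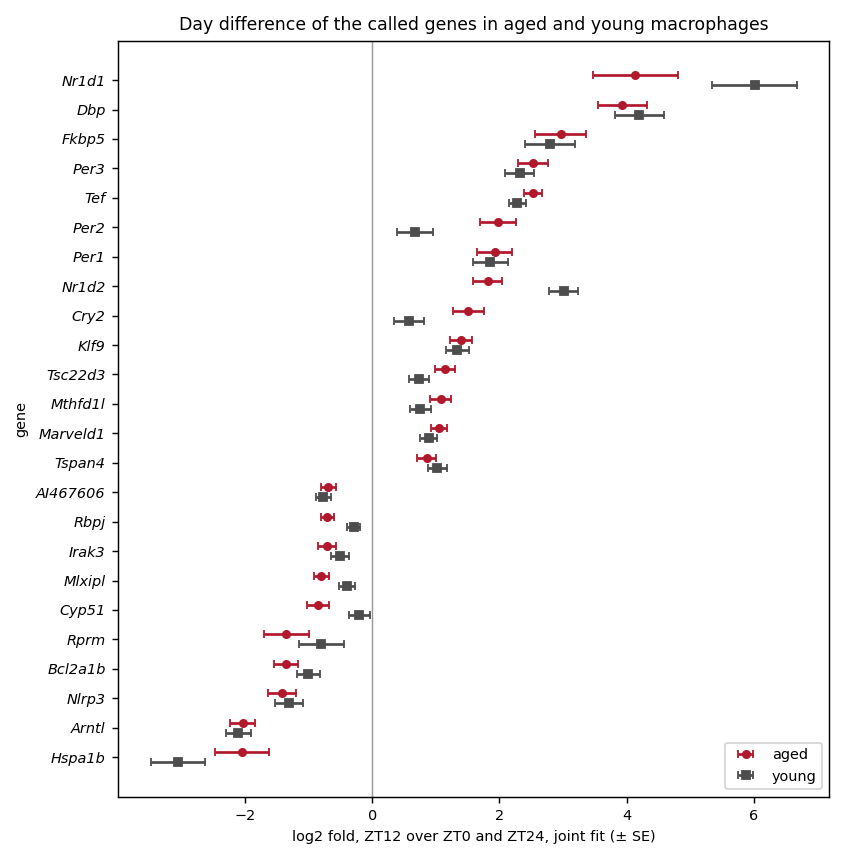
Log2 fold of ZT12 over ZT0 and ZT24 (x axis, with 1 SE) in aged (red circles) and young macrophages (grey squares) from the joint fit, for 24 called genes (y axis). All genes lie on the same side of 0 at both ages, and the points are farthest apart in Nr1d1, at 4.14 in aged and 6.01 in young cells.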

How the data were processed

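Per the labels' protocols, macrophage RNA was purified from Trizol lysates and sequenced from transcript ends (Lexogen QuantSeq). Per the submitters' processing notes the tools were STAR and DESeq2 and the build was mm10. For versions and annotation, nothing was given in the labels or notes. The authors deposited 1 table per age with a normalized signal per gene, in which all values of a library are multiples of its smallest one. Values divided by that smallest one were whole reads for 100% of entries, to a tolerance of 0.001. The tables were normalized separately, so levels are not compared across ages. Of 47643 genes, 47224 were matched to a symbol, and coordinates come from GENCODE M21 (GRCm38).

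Groups are the labelled age and time. Genes averaging 10 or more were taken as log2(value + 1), and limma-trend (limma 3.58.1, R 4.3.3) fitted 7 time means over the 21 aged libraries with 14 residual degrees of freedom. The contrast was ZT12 minus the mean of ZT0 and ZT24, with Benjamini-Hochberg adjustment over all genes. For the age difference the whole reads of the 42 libraries were given common median-of-ratios size factors and fitted as 14 group means. The edgeR 4.0.16 quasi-likelihood test and DESeq2 1.42.0 on recovered reads were alternatives, with others for pseudocount, filter, scaling, weights, covariates, times and left-out libraries. On simulated counts with 200 of 12016 genes changed, the test recovered 17.9% of changes of 0.5, 70.1% of 1 and 89.4% of 2 on the log2 scale, and 3.28% of its calls were unchanged genes. The adjustment is less strict when more genes change. With 25 genes called in the data, these shares may overstate the recovery there. The labels name no molecular identifiers, so PCR copies of 1 molecule may be counted more than once.

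The gene lists and the genes to describe were chosen with earlier results of these data known. Named are clock genes that passed the filter, up to 15 called rises and 15 called falls, up to 3 genes of lowest p per other list and up to 10 for the age difference, passing over Gm and Rik models, pseudogenes and immunoglobulin or T cell receptor segments. In addition, Bcl2a1a and Hspa1a were looked up as near-identical copies of called genes, and no other copies are reported. No library was a copy of its replicate: chi-square values per gene lay between 7.51 and 54.16. Promoter windows are those of RefSeq on GRCm38.p6.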

Additional observations from a re-analysis of the deposited data

Results flagged for a closer look

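In 4 of the 25 called genes, 1 of the 6 ZT0 and ZT24 libraries lay far from the other 5, by a gap over 0.625 of the whole range; chance alone gives about 1 such group in 20. The first ZT24 library stood high in 3 of them. It had 773.785 normalized reads of Fkbp5, with the next highest at 148.1, 2598.21 of Klf9, with the next at 1224, and 355.352 of Per1, with the next at 135.2. The second ZT24 library stood low in Per2, at 44.8857 with the next lowest at 98.8. Without the library in question all 4 genes were called at ZT12, and the log2 fold of Per2 was 1.76. For Fkbp5, Klf9 and Per1 that library was the nearest to ZT12. Leaving it out widens their folds by itself, so their calls add no support.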

How the results depend on the processing

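The count of 25 genes at ZT12 was between 19, without the second ZT12 library, and 35, without the first, when 1 of the 9 libraries was left out. DESeq2 called 53, which held all 25, and gave no adjusted p for 238 genes. In the other settings the count was between 17, against ZT24 alone, and 31, with array weights. A fit without an aged ZT8 and an aged ZT16 library that lay far from their groups, chosen after seeing the data, gave 28. Of the 25 genes, 15 were called in all 25 settings, 17 were called without any 1 of the 9 libraries, and none changed sign. Calls were lost for Cyp51 in 14 settings, a Rik gene model in 13, Rprm in 10, Irak3 in 9, Tspan4 in 5, Hspa1b in 3, AI467606, Cry2 and Rbpj in 2 each and Nr1d1 in 1. The pseudocount left the count at 25 and 25, and total count and TMM scaling gave 26 and 25. Between ZT24 and ZT0 the count of 0 became 1 without the filter on low values and 1 with DESeq2. For the difference between ages the count of 0 became 1 without the filter and ranged from 0 to 1 with single libraries left out, the 1 without the first aged ZT12 library. With the replicate number as a replicate block 26 genes were called at ZT12, 25 of them the same, and 0 in each of the other comparisons. The numbers are not taken to pair libraries, since only 1 of 9 same-numbered pairs had deviations correlated above 0.1 (range -0.127 to 0.102). Limits are the 3 ZT12 libraries, low reads in Nr1d1, and unknown numbers of mice per library. About 17.9% of log2 changes of 0.5 were recovered in the simulation of 200 changed genes, a share that may be too high for these data.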
